A study of Mus musculus with 30 samples.

Results

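A group of 10 cell adhesion genes, of the 19082 genes that the array's annotation names, was followed through chemical reprogramming of mouse cells. They are the cadherin genes Cdh1, Cdh2, Cdh3 and Cdh11, the surface gene Epcam, the claudin genes Cldn3, Cldn4, Cldn6 and Cldn7, and the desmoplakin gene Dsp. They were taken by gene symbol, and all 10 had at least 1 probe. Cadherins are calcium-dependent adhesion proteins that join neighbouring cells at adherens junctions, claudins are the strands that seal tight junctions, and desmoplakin ties desmosomes to intermediate filaments. Fibroblasts and other mesenchymal cells typically carry N-cadherin (Cdh2) and cadherin-11 (Cdh11), whereas epithelial cells carry E-cadherin (Cdh1), Epcam and epithelial claudins. Pluripotent mouse cells grow as compact colonies held by E-cadherin, so reprogramming of fibroblasts involves a cadherin switch from the mesenchymal to the epithelial state.

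The study profiled total RNA on a 1-colour mouse oligonucleotide array in 30 samples, which the authors normalized in 5 separate sets. The somatic group held 7 untreated samples: 4 of mouse embryonic fibroblasts (MEF1, MEF2, MEF3 and the wild-type WT MEF), 1 of adipose-derived stem cells (ADSC), 1 of fibroblasts from adult lung (MAF) and 1 of fibroblasts from neonates (MNF). The 11 lines of chemically induced pluripotent stem cells (CiPSC) came from these cell types after treatment with cocktails that the labels code by letters, from VC6TFDBS+Z for CiPS21 to VC6F+Z for CiPS50 and FC6+Z for CiPS45. The other pluripotent samples were 2 OSKM iPSC lines and 2 SKM-FSK iPSC lines from embryonic fibroblasts, and 5 untreated embryonic stem cell (ESC) samples, of which ESC2 was line TT2 and the others were line R1. The time course in set 5 had 1 sample each at day 12 (VC6TF), day 20 and day 32 (both VC6TF+Z), beside MEF3, a CiPSC control line made with VC6TF+Z, and ESC5. Set 1 held MEF1 and ESC1 with OSKM iPS1 and the CiPSC lines CiPS21, CiPS34, CiPS50 and MNF CiPS7, and set 2 held ADSC, MAF, MNF and ESC2 with OSKM iPS2 and the CiPSC lines CiPS45, MNF CiPS1, ADSC CiPS2 and MAF CiPS3. Set 3 held WT MEF, CiPS WT1, CiPS WT2 and ESC3, and set 4 held MEF2, SKM-FSK1, SKM-FSK2 and ESC4. The title of ADSC CiPS2 names adipose-derived stem cells, whereas its source name gives adult lung fibroblasts. All pluripotent cells were grown on feeder layers of mitomycin C-treated embryonic fibroblasts, so some fibroblast RNA can be present in them, and in bulk RNA fewer cells of a type and less RNA per cell cannot be told apart.

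The sets differed in which probes they hold and in scale, so intensities are comparable within a set only. Each set had between 13989 and 26397 probes, and the median intensity of a sample was 110 in set 5 and between 225 and 359 in the other sets. In set 5 between 18.5% and 18.7% of probes lay under an intensity of 16, against at most 0.847% in any sample of the other sets. Values under 16 were therefore set to 16 before log2 was taken. Set 5 also read several pluripotency genes low in its pluripotent samples: Sox2 was 34.2 in ESC5 and 41.1 in the CiPSC control line, against 27869 in ESC4, whereas Esrrb was 27782 in ESC5 and 21033 in ESC4. Fibroblast markers summed to between 97032 and 99092 in CiPS WT1 and CiPS WT2 over 12 markers, against 30007 in ESC3 and 285021 in WT MEF. The keratinocyte genes Krt5 and Krt14 were at 3322 and 3811 in MEF3 and at 2397 and 55217 in MNF, whereas Krt5 did not exceed 279 in the other 5 somatic samples. These values come from different sets, and the list of 7 keratinocyte markers was mixed. In the CiPSC control line 3 of 7 were past 2-fold higher and 3 lower than in MEF3 (23.6% and 30.2% of all genes). In MNF CiPS1 0 of 6 were higher and 3 lower than in MNF (19.7% and 18%).

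Cdh3, Cdh11, Cldn3, Cldn4, Cldn6 and Cldn7 were measured in all 30 samples, Epcam in 26 (not in set 3) and Dsp in 26 (not in set 4). Cdh1 was measured in 19 samples (sets 2, 4 and 5) and Cdh2 in 14 (sets 3, 4 and 5), so sets 4 and 5 alone show both. Cdh3 had 3 probes, Epcam 2 and Cldn4 2, and the probe present in most samples was used, with the higher mean level deciding between the Cldn4 probes.

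Promoter sequences are shown because the repressors of the Snail and Zeb families, which are known for silencing epithelial junction genes, bind the E-box hexamer CAGGTG. RefSeq windows on GRCm38.p6, from 250 bases before to 50 bases after a start site, were found for 6 of the 10 genes (Epcam, Cldn3, Cldn4, Cldn6, Cldn7 and Dsp), with 7 windows in all because Cldn7 had 2. CAGGTG on either strand, read as CAGGTG or CACCTG, occurred in 6 of the 7 windows and in 6 of 6 genes. Of all 32851 windows of the same length 20.2% held it, and of all 27025 genes 22.6%. The windows with 2 matches are printed below, 5′ to 3′ along the gene's strand, with the matches in capitals. They are Epcam at chr17:87635729-87636028 (plus strand), Cldn6 at chr17:23679115-23679414 (plus strand), Cldn4 at chr5:134946885-134947184 (minus strand) and the second Cldn7 window at chr11:69965171-69965470 (plus strand).
Epcam: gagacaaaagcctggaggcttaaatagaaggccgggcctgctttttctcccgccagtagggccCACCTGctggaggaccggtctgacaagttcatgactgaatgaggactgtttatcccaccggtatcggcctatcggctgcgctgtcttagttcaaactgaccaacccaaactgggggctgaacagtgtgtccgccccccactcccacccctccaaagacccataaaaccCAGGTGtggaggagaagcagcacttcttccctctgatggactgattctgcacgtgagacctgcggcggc
Cldn6: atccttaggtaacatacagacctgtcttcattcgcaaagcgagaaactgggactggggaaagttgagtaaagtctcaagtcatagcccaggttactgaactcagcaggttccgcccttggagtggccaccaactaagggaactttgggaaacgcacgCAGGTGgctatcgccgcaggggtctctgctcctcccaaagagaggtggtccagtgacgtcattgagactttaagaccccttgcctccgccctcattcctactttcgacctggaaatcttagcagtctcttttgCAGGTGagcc
Cldn4: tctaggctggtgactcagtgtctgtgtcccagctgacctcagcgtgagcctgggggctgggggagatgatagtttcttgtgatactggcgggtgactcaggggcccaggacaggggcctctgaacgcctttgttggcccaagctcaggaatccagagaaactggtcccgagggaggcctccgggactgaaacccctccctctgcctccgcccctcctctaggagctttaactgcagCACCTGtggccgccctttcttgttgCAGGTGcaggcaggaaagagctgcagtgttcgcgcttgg
Cldn7: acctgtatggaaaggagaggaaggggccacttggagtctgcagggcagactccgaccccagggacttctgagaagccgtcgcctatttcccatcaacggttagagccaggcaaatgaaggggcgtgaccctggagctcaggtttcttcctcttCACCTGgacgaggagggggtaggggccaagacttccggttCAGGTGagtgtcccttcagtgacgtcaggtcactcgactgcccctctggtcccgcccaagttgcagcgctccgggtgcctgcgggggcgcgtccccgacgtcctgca
Taking the match whose first base was nearest the start site, that base lay at position -19 in Epcam, 41 in Cldn6, 12 in Cldn4 and -57 in Cldn7. Negative positions are before the start. The other Cldn4 match began at -14 and its last base was nearer the start site. Dsp (chr13:38151044-38151343) and Cldn3 (chr5:134985964-134986263) held 1 match each, at 4 and 32. A match of letters is a description of the window and not a bound site.

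The CiPSC lines were compared with the somatic cells to ask how far the cadherin switch had gone in the established lines. Of the 10 genes 6 were higher, 1 was lower and 3 did not pass, where a call needed a Benjamini-Hochberg adjusted p under 0.05 in limma over all genes tested and at least a 2-fold difference. Over all 16497 genes tested, 14.9% were higher and 13.3% lower by that rule, together 28.2%. Epcam rose by a fitted log2 difference of 3.90 ± 0.36 (SE, 9 CiPSC lines against 6 somatic samples), Cdh1 by 3.38 ± 0.85 (5 against 5) and Cldn6 by 3.08 ± 0.74 (11 against 7). These counts are samples in the fit and include MEF2, whose set 4 holds no CiPSC line. Cdh1 thus had both groups together in sets 2 and 5 only. Cldn7 rose by 2.59 ± 0.58, Dsp by 2.45 ± 0.45 and Cldn4 by 1.33 ± 0.44, and Cdh11 fell by 3.56 ± 0.32. The median log2 difference of the 10 genes was 1.89, beside -0.11 over all genes tested.

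**Figure D1:**
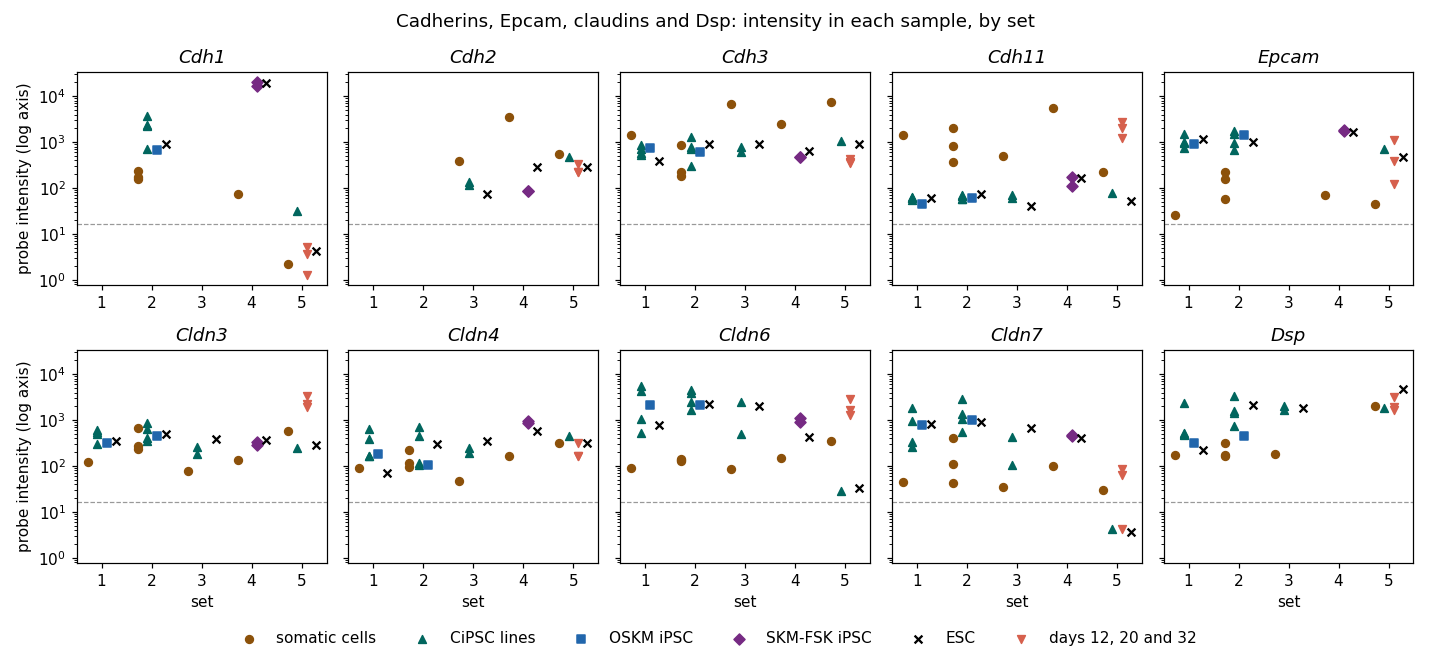
Probe intensity (log axis) of each gene in each sample, by normalization set (horizontal axis); a point is 1 sample, markers stand for the groups, and the dashed line is the floor of 16. In sets 1 to 4 Cdh11 lies between 39.6 and 174 in every pluripotent sample and between 366.5 and 5539 in the somatic cells, and set 5 reads Cdh1 at or below 30.7 in all its samples.

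Cdh1 encodes E-cadherin, the classical cadherin of epithelia and of pluripotent colonies. In set 2 it was at 235 in MNF, 161 in MAF and 174 in ADSC, against 2409 in MNF CiPS1, 694 in MAF CiPS3, 3629 in CiPS45, 2294 in ADSC CiPS2, 666 in OSKM iPS2 and 892 in ESC2. In set 4 it was at 74.8 in MEF2, 16381 in SKM-FSK1, 20933 in SKM-FSK2 and 19890 in ESC4. In set 5 it was at 2.25 in MEF3, 5.25 at day 12, 3.58 at day 20, 1.25 at day 32, 30.7 in the CiPSC control line and 4.17 in ESC5. Every pluripotent sample of sets 2 and 4 thus lay above every somatic sample of its set, whereas in set 5 all values but that of the CiPSC control line were under the floor, the ESC included. The difference from somatic cells passed in limma for CiPSC (adjusted p = 0.00579), for ESC (3.34 ± 0.97, adjusted p = 0.0152) and for SKM-FSK iPSC (5.59 ± 1.38, adjusted p = 0.0144). The ESC call was lost without MEF2 or without ESC4 (1.50, adjusted p = 0.109 in both cases), and the SKM-FSK call without MEF2 (1.40, adjusted p = 0.599), without SKM-FSK1 (5.77, adjusted p = 0.0674) or without SKM-FSK2 (5.42, adjusted p = 0.0865). OSKM iPSC could not be tested for Cdh1, since OSKM iPS1 had no value, and within set 2 OSKM iPS2 was 1.83 log2 units above the mean of the somatic cells.

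Cdh2 encodes N-cadherin, the classical cadherin of mesenchymal and neural cells. It was at 386 in WT MEF, 117 in CiPS WT1, 134 in CiPS WT2 and 72.8 in ESC3. In set 4 it was at 3468 in MEF2, 84.5 in SKM-FSK1, 86.5 in SKM-FSK2 and 292 in ESC4, and in set 5 at 557 in MEF3, 484 in the CiPSC control line and 283 in ESC5. The MEF was highest in each of the 3 sets, with the smallest gap to a CiPSC line in set 5. The fall passed for SKM-FSK iPSC (-4.72 ± 0.62, adjusted p = 0.000813) and ESC (-2.32 ± 0.47, adjusted p = 0.00339) and did not for CiPSC (-1.30 ± 0.50, adjusted p = 0.0664), all in limma. Within sets the CiPSC difference was -1.63 in set 3 and -0.20 in set 5. In set 4, where both genes had values above the floor, the SKM-FSK lines were 7.95 above MEF2 in Cdh1 on the log2 scale and differed from it by -5.34 in Cdh2, and for ESC4 these differences were 8.06 and -3.57.

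Cdh3 encodes P-cadherin, known from basal epidermis, hair follicle and placenta. Its used probe was at 1420 in MEF1, 6817 in WT MEF, 2512 in MEF2 and 7593 in MEF3, but at 864 in MNF, 179 in MAF and 228 in ADSC. The CiPSC lines lay between 305 and 1288, the ESC between 385 and 929, the OSKM iPSC at 742 and 610 and the SKM-FSK iPSC at 475 and 474. The embryonic fibroblasts were above every pluripotent sample of their sets, whereas MAF and ADSC were below every pluripotent sample of set 2. The difference between CiPSC and somatic cells was -0.78 ± 0.50 (adjusted p = 0.221) and did not pass, nor did the ESC, OSKM and SKM-FSK comparisons. With the MEF as the only somatic samples it was -2.28 (adjusted p = 9.82e-05) for CiPSC, -2.35 (adjusted p = 9.98e-05) for ESC, -2.15 (adjusted p = 0.00749) for OSKM iPSC and -2.59 (adjusted p = 0.00531) for SKM-FSK iPSC, all in limma. Leaving out MAF also gave a call for CiPSC (-1.18, adjusted p = 0.05), and the ESC comparison passed without MAF (-1.49), ADSC (-1.44) or ESC2 (-1.67). The other Cdh3 probes did not all follow: mMC014401 read 178 and 151 in the SKM-FSK lines against 121 in MEF2, and PH_mM_0016278 read 4.25 in MEF3 where the used probe read 7593.

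Cdh11 encodes cadherin-11, a cadherin of mesenchymal and bone-forming cells. In set 1 it was at 1416 in MEF1 and between 55.2 and 63.2 in the CiPSC lines, with OSKM iPS1 at 44.8 and ESC1 at 59.6. In set 2 it was at 2057 in MNF, 366.5 in MAF and 807 in ADSC, against 57.3 in MAF CiPS3, 58.1 in ADSC CiPS2, 66.7 in MNF CiPS1 and 68.7 in CiPS45, 59.5 in OSKM iPS2 and 73.4 in ESC2. In sets 3 to 5 it was at 499 in WT MEF, 5539 in MEF2 and 222 in MEF3, against 39.6 to 77.0 in the pluripotent samples of sets 3 and 5 and 111 to 174 in those of set 4. No pluripotent sample reached the somatic samples of its set. The fall was -3.56 ± 0.32 in CiPSC (adjusted p = 1.16e-08), -3.80 ± 0.38 in ESC (adjusted p = 7.07e-08), -3.97 ± 0.53 in OSKM iPSC (adjusted p = 8.18e-06) and -4.67 ± 0.67 in SKM-FSK iPSC (adjusted p = 5.58e-05), each from limma. These calls held in all 32, 25, 22 and 21 alternatives tried. Within sets the CiPSC difference ran from -4.57 in set 1 to -1.53 in set 5. The wild-type CiPSC lines, whose fibroblast markers were high, read 70.1 and 61.6, which was 0.82 and 0.64 log2 units above ESC3 of their set (39.6).

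Epcam encodes a surface protein of epithelial and embryonic stem cells that acts in adhesion and stabilises claudin-7. It was at 26.1 in MEF1, against 1013 in CiPS34, 756 in MNF CiPS7, 933 in CiPS50, 1480 in CiPS21, 931 in OSKM iPS1 and 1153 in ESC1. In set 2 it was at 228 in MNF, 57.4 in MAF and 157 in ADSC, against 684.5 to 1759 in the CiPSC lines, 1404 in OSKM iPS2 and 1028 in ESC2. In set 4 it was at 68.7 in MEF2 and between 1626 and 1795 in the pluripotent samples, and in set 5 at 44.2 in MEF3, 696 in the CiPSC control line and 485 in ESC5. The somatic and pluripotent samples did not overlap in any set. All comparisons with somatic cells passed in limma: CiPSC at 3.90 ± 0.36 (adjusted p = 4.6e-08), ESC at 3.89 ± 0.42 (adjusted p = 5.77e-07), OSKM iPSC at 3.95 ± 0.54 (adjusted p = 2.03e-05) and SKM-FSK iPSC at 4.34 ± 0.68 (adjusted p = 0.000219). The second probe gave a wider contrast in sets 2 and 4, with 291 to 1574 in the somatic cells of set 2 against 12649 to 19307 in its pluripotent samples. In set 5 that probe was not above 48.2 in any sample, ESC5 included.

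**Figure D2:**
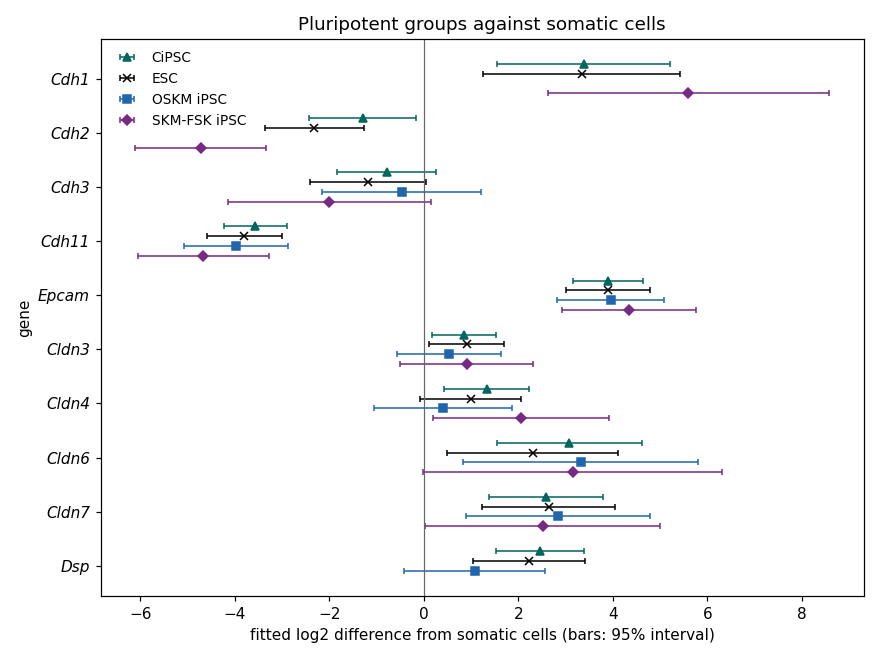
Fitted log2 difference of each pluripotent group from somatic cells (horizontal axis) for each gene, from the fit over all 30 samples with set as a term; bars are 95% intervals. Cdh11 lies left of 0 and Epcam right of 0 in each of the 4 comparisons, and the Cdh3 intervals all reach 0.

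Cldn6 encodes a claudin known from embryonic epithelia and pluripotent cells. In set 1 it was at 89.9 in MEF1, 4353 in CiPS34, 1039 in MNF CiPS7, 510 in CiPS50, 5659 in CiPS21, 2113 in OSKM iPS1 and 776 in ESC1. In set 2 it was at 143 in MNF, 131 in MAF and 134 in ADSC, against 3808, 4615, 1676 and 2512 in the CiPSC lines, 2181 in OSKM iPS2 and 2222 in ESC2. In sets 3 and 4 it was at 84.4 in WT MEF, 2506 in CiPS WT1, 496 in CiPS WT2 and 2009 in ESC3, and at 150 in MEF2, 907 in SKM-FSK1, 1128 in SKM-FSK2 and 425 in ESC4. The groups did not overlap within these sets. Set 5 ran the other way, with 354 in MEF3, 28.8 in the CiPSC control line and 32.5 in ESC5. The rise passed in limma in CiPSC (3.08 ± 0.74, adjusted p = 0.00195), ESC (2.30 ± 0.87, adjusted p = 0.0423) and OSKM iPSC (3.32 ± 1.20, adjusted p = 0.0475) and not in SKM-FSK iPSC (3.15 ± 1.53, adjusted p = 0.186). Without MEF3 the SKM-FSK difference was 3.76 (adjusted p = 0.00699), while the ESC call was lost without any single 1 of MEF1, ESC1, MNF, MAF, ADSC, ESC2, WT MEF, ESC3, MEF2 or ESC4 (1.85 to 2.47, adjusted p from 0.0582 to 0.138). The OSKM call was likewise lost without MEF1, OSKM iPS1, MNF, MAF, ADSC, OSKM iPS2, WT MEF or MEF2 (3.00 to 3.54, adjusted p from 0.0517 to 0.257), and the CiPSC call with the MEF as the only somatic samples (2.05, adjusted p = 0.0989).

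Cldn7, a basolateral claudin and partner of Epcam, was at 44.4 in MEF1 and between 266 and 1871 in the CiPSC lines of set 1. In set 2 it was at 41.7 in MNF, 108 in MAF and 410 in ADSC, against 546 to 2828 in the CiPSC lines. Within set 2 ADSC was the somatic sample closest to the pluripotent samples and still below each of them. In set 3 Cldn7 was at 34.9 in WT MEF against 104 to 660 in the pluripotent samples, and in set 4 at 102 in MEF2 against 415 to 484. In set 5 Cldn7 was at 29.8 in MEF3 and under 5 in the CiPSC control line and ESC5. It passed in limma in CiPSC (2.59 ± 0.58, adjusted p = 0.00103), ESC (2.64 ± 0.68, adjusted p = 0.004) and OSKM iPSC (2.84 ± 0.94, adjusted p = 0.0301), and not in SKM-FSK iPSC (2.51 ± 1.20, adjusted p = 0.177). The OSKM call was lost without MEF1 (2.50), OSKM iPS1 (2.65), MNF (2.43) or OSKM iPS2 (3.05), with adjusted p from 0.0537 to 0.21, and the SKM-FSK comparison passed without MEF3 (2.85, adjusted p = 0.0455).

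Cldn3 and Cldn4 encode claudins of simple epithelia and are neighbours on the same chromosome. Cldn3 was at 119 in MEF1 against 296 to 618 in the CiPSC lines of set 1, and at 75.8 in WT MEF against 256 and 185 in CiPS WT1 and CiPS WT2. In set 2 the groups overlapped: MNF read 234, MAF 272 and ADSC 666, and the CiPSC lines 350, 853, 410 and 635. In set 5 the order turned, with 574 in MEF3, 249 in the CiPSC control line and 284 in ESC5. The CiPSC difference of 0.85 ± 0.33 had an adjusted p of 0.0429 in limma but stayed under 2-fold, and no comparison of Cldn3 was called. It reached 2-fold without ADSC (1.06), MEF3 (1.16) or the CiPSC control line (1.01), and the ESC comparison passed without ADSC (1.07), MEF3 (1.29) or ESC5 (1.11). Cldn4 was at 89.9 in MEF1, 654 in CiPS34, 381 in MNF CiPS7, 162 in CiPS50 and 167 in CiPS21, while in set 2 MNF CiPS1 and MAF CiPS3 (104 and 118) were at the level of MNF, MAF and ADSC (96.4, 116 and 224) and CiPS45 and ADSC CiPS2 (690 and 445) were above it. The second Cldn4 probe differed there: it read 360 in MNF CiPS1 and 355 in MAF CiPS3, above MNF, MAF and ADSC at 54.7, 77.5 and 255. Cldn4 passed in CiPSC (1.33 ± 0.44, adjusted p = 0.018), and that call was lost without WT MEF (1.09, adjusted p = 0.0663). It did not pass in ESC (0.99 ± 0.51, adjusted p = 0.136), OSKM iPSC (0.41 ± 0.71, adjusted p = 0.748) or SKM-FSK iPSC (2.06 ± 0.90, adjusted p = 0.136). With the second Cldn4 probe all 3 passed in limma, at 1.72 (adjusted p = 0.00301), 2.21 (adjusted p = 0.00827) and 2.70 (adjusted p = 0.0167), and the ESC comparison also passed without ESC1 (1.44).

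Dsp encodes desmoplakin, the plaque protein through which desmosomes hold keratin filaments. It was at 169 in MEF1, 2371 in CiPS34, 477 in MNF CiPS7, 490 in CiPS50, 528 in CiPS21, 311 in OSKM iPS1 and 218 in ESC1. In set 2 it was at 317 in MNF, 168 in MAF and 172 in ADSC, against 742, 3380, 1546 and 1439 in the CiPSC lines, 449 in OSKM iPS2 and 2118 in ESC2. In set 3 it was at 179 in WT MEF and between 1647 and 1991 in the pluripotent samples. In set 5 MEF3 read 2018, close to the CiPSC control line at 1874 and under ESC5 at 4745. Dsp passed in limma in CiPSC (2.45 ± 0.45, adjusted p = 0.000168) and ESC (2.23 ± 0.57, adjusted p = 0.00399), and not in OSKM iPSC (1.07 ± 0.72, adjusted p = 0.321). Some keratinocyte markers were high in the same somatic samples. Krt5 was at 3322 and Trp63 at 688.5 in MEF3, and MNF, which had the highest Dsp and Cdh3 of the somatic cells of set 2, had Krt5 at 2397. The list as a whole was mixed, with 3 of 7 markers past 2-fold higher and 3 lower in the CiPSC control line than in MEF3. Summed over the keratinocyte list the level was 9681 in MEF3, 8135 in the CiPSC control line and 6474 in ESC5. In set 2 the sum was 67149 in MNF, 2421 in MAF and 3660 in ADSC, against 5741 to 10623 in the CiPSC lines. The part of keratinocytes in these values was not tested.

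The comparisons above share the somatic samples, so their values stand side by side and are not independent. For ESC, 5 of the 10 genes were higher and 2 lower, where 15.3% and 14.3% of 16509 genes were, together 29.6%. For OSKM iPSC, 3 of the 8 genes tested were higher and 1 lower, where 12.2% and 10.1% of 11406 genes were. For SKM-FSK iPSC, 2 of the 9 genes tested were higher and 2 lower, where 7.53% and 8.09% of 16260 genes were. The SKM-FSK lines and their 1 MEF are in set 4 only, so their error rests largely on the spread of the other groups. The fitted differences also draw on other sets: for Cdh1 the fit gave 5.59, whereas within set 4 the difference was 7.95. Without MEF2 set 4 holds no somatic sample, so the 1.40 for Cdh1 was reached through the other sets.

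CiPSC and OSKM iPSC were each compared with ESC, and no difference in these genes passed. SKM-FSK iPSC against ESC and CiPSC against OSKM iPSC were not tested. CiPSC against ESC gave 0 of 10 genes in limma, also 0 at an unadjusted p under 0.05, where 0.0303% of all genes (5 of 16497) were called. The fitted differences were 0.01 ± 0.42 for Epcam, -0.05 ± 0.66 for Cldn7, 0.04 ± 1.04 for Cdh1, 0.24 ± 0.37 for Cdh11 and 0.22 ± 0.52 for Dsp. The largest was Cdh2 at 1.02 ± 0.50 (unadjusted p = 0.0705), above ESC by 0.78 in set 3 and by 0.78 in set 5. For Cdh1 the CiPSC lines were above ESC by 1.11 in set 2, with pairs from -0.36 to 2.02. In set 5 the gap was 0.94, with ESC5 under the floor. The fitted 0.04 for Cdh1 also draws on set 4, which holds no CiPSC line. The 95% interval reached 0.76 log2 units to either side of the estimate for Cdh11, 0.87 for Epcam, 1.74 for Cldn6 and 2.23 for Cdh1, so a 2-fold difference remained within reach for most of these genes. OSKM iPSC against ESC gave 0 of 8 genes, also 0 at an unadjusted p under 0.05, where 0.0175% of all genes (2 of 11406) were called. The largest of these differences was Dsp at -1.16 ± 0.77, with OSKM iPS2 at 449 against 2118 in ESC2 and OSKM iPS1 at 311 against 218 in ESC1.

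The CiPSC lines of a set lay close together in Cdh11 and further apart in Cldn6 and Cldn7, a difference that was not tested. Cdh11 read only 55.2 to 70.1 in these lines, where the median intensity of a sample was at least 225. The part of low signal in its narrow range was not tested. Within set 1 the highest line exceeded the lowest 11.1-fold for Cldn6 (CiPS21 over CiPS50), 7.05-fold for Cldn7 (CiPS34 over MNF CiPS7), 4.97-fold for Dsp and 4.03-fold for Cldn4, but 1.15-fold for Cdh11. Within set 2 it did so 6.67-fold for Cldn4 (CiPS45 over MNF CiPS1), 5.23-fold for Cdh1 (CiPS45 over MAF CiPS3), 5.18-fold for Cldn7 and 4.55-fold for Dsp, but 1.20-fold for Cdh11. In set 3 CiPS WT1 exceeded CiPS WT2 5.05-fold for Cldn6 and 4.10-fold for Cldn7, while the lines were within 1.25-fold for Cdh2, Cdh3, Cdh11 and Dsp, and differed 1.27-fold for Cldn4 and 1.38-fold for Cldn3. Cldn3 ranged 2.09-fold in set 1 and 2.43-fold in set 2. The Cldn4 ranges rest on the used probe: the second probe lay between 214.5 and 445 in the lines of set 1 and between 355 and 632 in those of set 2. The median range over all genes was 0.75 log2 units in set 1, 1.00 in set 2 and 0.24 in set 3, against 3.47, 1.46 and 2.34 for Cldn6 and 0.20, 0.26 and 0.19 for Cdh11. MAF CiPS3 was highest of the 4 lines of set 2 in Cdh3, Epcam, Cldn3, Cldn6, Cldn7 and Dsp and lowest in Cdh1 and Cdh11. Each line is 1 sample, so this spread has no replicate check within a line.

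**Figure D3:**
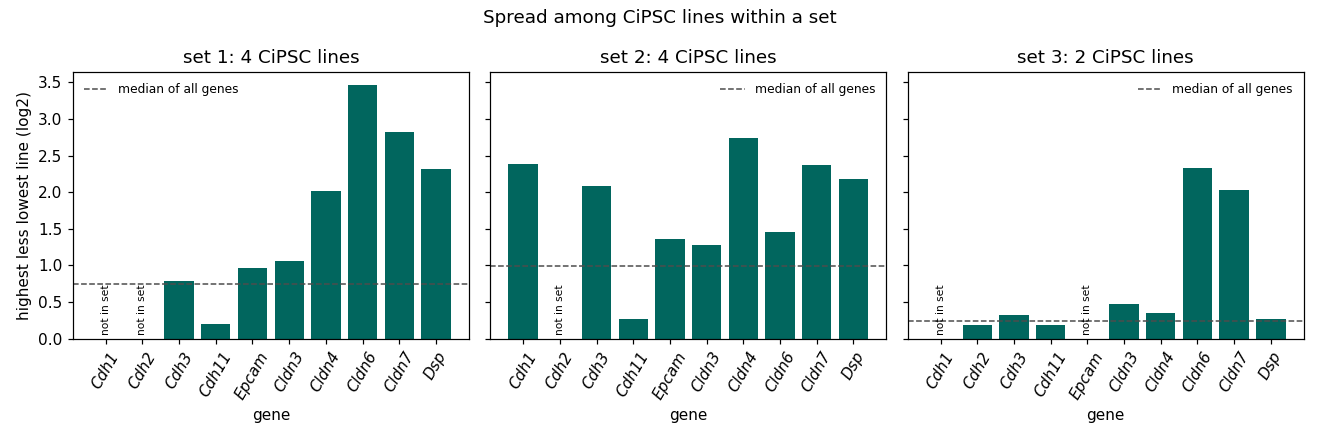
Range among CiPSC lines of a set (vertical axis, log2 of the highest less the lowest line) for each gene, in sets 1 to 3; the dashed line is the median range over all genes of that set. Cldn6 has the largest range in sets 1 and 3, at 3.47 and 2.34, and Cdh11, at intensities of 55.2 to 70.1, has the smallest in each set.

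Set 2 allowed CiPSC lines to be set against the cells they were named for, with 1 sample on each side and no test. MNF CiPS1 was past 2-fold higher than MNF in 5 of 9 genes and lower in 2 (19.7% and 18% of all genes), MAF CiPS3 than MAF in 7 and 1 (22.1% and 19.9%), and ADSC CiPS2 than ADSC in 6 and 1 (17.7% and 17.1%). Cdh1, Epcam, Cldn6, Cldn7 and Dsp were higher and Cdh11 was lower in each of these pairs. Cdh1 was 10.3-fold higher in MNF CiPS1, 4.32-fold in MAF CiPS3 and 13.2-fold in ADSC CiPS2. Cdh11 was 30.8-fold, 6.40-fold and 13.9-fold lower, in the order of the somatic levels of 2057, 366.5 and 807. Cdh3 ran in different directions, 2.84-fold lower in MNF CiPS1 and 7.19-fold and 3.06-fold higher in MAF CiPS3 and ADSC CiPS2, with line levels of 305, 1288 and 698. Cldn3 was 1.05-fold lower in ADSC CiPS2 than in ADSC and 3.13-fold higher in MAF CiPS3 than in MAF.

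The adipose-derived stem cells read higher than both fibroblasts of the same set in Cldn3, Cldn4 and Cldn7, but not in Cldn6. ADSC was past 2-fold higher than MNF in 3 of 9 genes and lower in 2 (16.1% and 17.3% of all genes), and higher than MAF in 4 and lower in 0 (7.12% and 8.86%). Cldn7 was at 410 in ADSC, 9.82-fold above MNF and 3.81-fold above MAF, and Cldn3 at 666, 2.85-fold and 2.44-fold above them. The second Epcam probe read 1574 in ADSC against 908 in MNF and 291 in MAF, and the used probe 157 against 228 and 57.4. Cdh1 (174) and Cldn6 (134) in ADSC were within 1.35-fold of both fibroblasts. Endothelial markers summed to 3970 over 7 genes in ADSC, 1437 in MNF and 1956 in MAF, with 4 of 7 past 2-fold higher than in MNF and 1 of 7 than in MAF. Trophoblast markers summed to 4498 over 5 genes in ADSC, 1768 in MNF and 1757 in MAF. Of the 5, 1 was past 2-fold higher and 0 lower than in MNF, and 1 higher and 1 lower than in MAF. The median log2 difference of this list was -0.23 from MNF and 0.11 from MAF, so the sum does not stand for the list. Pou5f1 was at 437 in ADSC, 149 in MNF and 96.6 in MAF, and the part of other cell types in the ADSC values was not tested.

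The time course followed embryonic fibroblasts through treatment, with 1 sample a day and no test. Between MEF3 and day 12, 4 of the 10 genes were past 2-fold higher and 2 lower, in a step where 20.5% of 23609 genes were higher and 25.9% lower. From day 12 to day 20, 2 genes were higher and 0 lower (2.52% and 0.822% of genes), and from day 20 to day 32, 1 higher and 0 lower (5.71% and 3.88%). Over the whole course from MEF3 to day 32, 5 were higher and 2 lower (24% and 29.7%). The CiPSC control line was past 2-fold higher than MEF3 in 1 gene and lower in 4 (23.6% and 30.2%), and higher than day 32 in 2 and lower in 4 (17.1% and 15.9%). ESC5 was higher than the CiPSC control line in 1 gene, Dsp (2.53-fold), and lower in 0 (8.53% and 6.73%).

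Epcam was higher at every step, going from 44.2 in MEF3 to 120 at day 12, 387 at day 20 and 1087 at day 32. These were steps of 2.72-fold, 3.22-fold and 2.81-fold, together 24.6-fold, and day 32 was above the CiPSC control line (696) and ESC5 (485). The second Epcam probe stayed between 12.7 and 48.2 in all 6 samples of the set. Cldn3 was 3.44-fold higher at day 12 (1971) than in MEF3 and stood at 2207 and 3422 at days 20 and 32, 13.7-fold above the CiPSC control line. Cldn6 was 7.99-fold higher at day 12 (2828) than in MEF3 and then stood at 1685 and 1289, 44.8-fold above the CiPSC control line. Cldn7 passed from under 5 at day 12 to 63.9 and 86.6, and Cldn4 stayed within 2-fold of the preceding sample throughout (316, 164, 164 and 313), whereas the second Cldn4 probe read 168, 66.8, 117 and 208, more than 2-fold lower at day 12 than in MEF3. Dsp stood at 2018, 1672, 1957 and 3269 and was within 2-fold at each step.

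The mesenchymal cadherin Cdh11 was not lower at any day of treatment than in MEF3. It was 12.3-fold higher at day 12 (2722) than in MEF3 (222), then stood at 2040 and 1234, and was 16.03-fold lower in the CiPSC control line (77.0) than at day 32. Cdh2 was at 557, 228, 332 and 219, and at 484 in the CiPSC control line, which was 2.21-fold above day 32. Cdh3 was 21.0-fold lower at day 12 (362) than in MEF3 (7593) and stayed at 342 and 431. The other Cdh3 probes gave less: mMC014401 read 97.4 in MEF3 and 27.5 at day 12, and PH_mM_0016278 was under the floor in MEF3 and at each day. Cdh1 was under the floor at every day, as it was in ESC5, so its course could not be read in set 5. Against day 12 instead of MEF3, day 32 was 0.25 log2 units higher in Cdh3, 1.14 lower (-1.14) in Cdh11 and 1.13 lower (-1.13) in Cldn6, the reverse of the direction from MEF3 for all 3 genes.

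**Figure D4:**
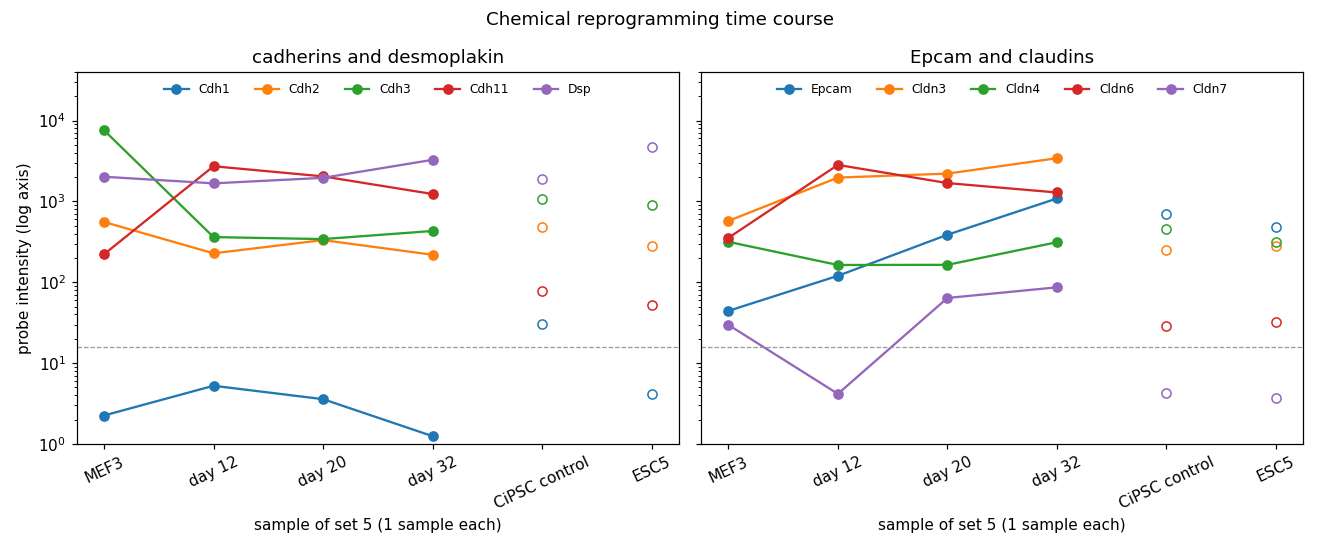
Probe intensity (log axis) in the 6 samples of set 5, with 1 sample each; filled points joined by lines are MEF3 and days 12, 20 and 32, open points are the established CiPSC control line and ESC5, and the dashed line is the floor of 16. Epcam climbs from 44.2 to 1087 and Cdh11 stays at 1234 or above from day 12 to day 32, then reads 77.0 in the CiPSC control line.

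Other cell markers also changed along the time course, not all in step with these genes. Extraembryonic endoderm markers summed to 4422 over 10 genes in MEF3, 3771 at day 12, 10928 at day 20, 26474 at day 32 and 2181 in the CiPSC control line. Among them Gata6 went from 2265 at day 12 to 12003 at day 32, Foxa2 from 57.3 to 1567 and Ttr from 94.2 to 2407. Fibroblast markers summed to 202182 over 16 genes in MEF3, 302479 at day 12, 208002 at day 32 and 26102 in the CiPSC control line, and those of pluripotent cells to 2957 over 9 genes at day 32 against 113356 in the CiPSC control line. The part of these cell types in the levels of Epcam, Cldn3, Cldn6 and Cdh11 was not tested.

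Set beside the rest of the junction machinery, the CiPSC lines showed rises in part of some lists and not in others. Rises were seen among tight junction and polarity genes, other desmosome genes, and epithelial regulators and surface genes. Among tight junction and polarity genes other than claudins 7 of 17 tested rose and 2 fell (median 0.97), led by Llgl2 (3.91 ± 0.27), a basolateral polarity gene, Tjp3 (3.26 ± 0.36), a tight junction scaffold, and Pard6b (2.96 ± 0.26), an apical polarity gene. Among the other desmosome genes 6 of 10 rose and 0 fell (median 1.37), led by the desmosomal cadherin Dsg2 (3.19 ± 0.44). Evpl (1.45 ± 0.22) and Perp (1.44 ± 0.48) followed it, and Perp was lost without MEF1 (1.31), MAF (1.21) or WT MEF (1.16). At an unadjusted p under 0.05, 1 of these desmosome genes was lower. Among epithelial regulators and surface genes 8 of 16 rose and 0 fell, also 0 at an unadjusted p under 0.05 (median 1.50), led by the transcription factor Elf3 (5.68 ± 0.46), the protease inhibitor Spint1 (4.80 ± 0.51) and the membrane protease St14 (3.99 ± 0.76). The all-gene median in this comparison was -0.11, and 14.9% of all genes were higher and 13.3% lower, against which the counts of each list are to be read.

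The lists of other claudins and other cadherins, which leave out the desmosomal cadherins, gave no gene called higher in the CiPSC lines. Of the other claudins 0 of 14 tested rose in limma, also 0 at an unadjusted p under 0.05, and 3 fell (median -0.33): Cldn15 by -2.76 ± 0.39, Cldn11 by -1.55 ± 0.36 and Cldn1 by -1.37 ± 0.27. Of the other cadherins 0 of 7 rose, also 0 at an unadjusted p under 0.05, and 2 fell (median -0.92), namely Cdh13 (-2.26 ± 0.37), a cadherin anchored by lipid, and the endothelial Cdh5 (-1.10 ± 0.42). Cdh5 had an adjusted p of 0.0424 in limma, and its call was lost in 16 of 32 alternatives, among them without ADSC (-0.63) or without MEF3 (-0.83). Catenins and adherens junction partners gave 3 higher, 1 lower and 10 not passed of 14 (median 0.37), shares near those over all genes. Plekha7 (3.05 ± 0.42), which binds p120-catenin at apical junctions, and the catenin-like Ctnnal1 (2.46 ± 0.31) were higher, Vcl (vinculin) was lower (-1.35 ± 0.33), and Jup (plakoglobin) was at 0.12 ± 0.25.

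The transcription factors known for repressing epithelial genes fell together in the CiPSC lines. Of 8 tested 0 rose, 7 fell and 1 did not pass (median -2.63). Prrx1 was at -4.43 ± 0.84, Snai2 at -4.25 ± 0.35, Twist2 at -4.19 ± 0.50, Twist1 at -3.03 ± 0.51, Foxc2 at -2.23 ± 0.32, Tcf4 at -2.04 ± 0.38 and Zeb1 at -1.33 ± 0.25. Snai1 was the exception, at 0.84 ± 0.27, with an adjusted p of 0.0157 in limma and under 2-fold. In the same comparison fibroblast markers gave 0 higher and 10 lower of 12 (median -5.71), and pluripotent cell markers 7 higher of 7 (median 5.20). The keratinocyte list gave 1 higher and 1 lower of 6, the trophoblast list 1 and 0 of 5, the extraembryonic endoderm list 1 and 1 of 5, the endothelial list 1 and 2 of 7 and the neural list 2 and 2 of 5, where over all genes 14.9% were higher and 13.3% lower.

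Along the time course these factors differed from MEF3 in different directions. At day 32, 4 of 10 were past 2-fold higher than in MEF3 and 1 lower, with a median log2 difference of 0.01. Over all genes 24% were higher and 29.7% lower in that comparison. Zeb1 read 3356 in MEF3, 6329 at day 12, 5741 at day 20 and 7539 at day 32, against 1694 in the CiPSC control line. The summed level of the 10 factors was 31111 in MEF3, 71855 at day 12, 63516 at day 20, 44721 at day 32 and 5478 in the CiPSC control line, a sum that its brightest genes carry, with Twist2 at 5007 in MEF3 and 25171 at day 12. Between day 20 and day 32, 6 of 21 epithelial regulators and surface genes and 5 of 19 tight junction and polarity genes were past 2-fold higher and 0 and 1 lower, where 5.71% of all genes were higher and 3.88% lower. Of the 10 repressing factors 0 were higher and 1 lower.

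The genes whose pattern was most like that of each member were sought over the 30 samples, each value taken less the mean of its set, among 10298 other genes measured in all sets. For Cdh11 they were Mfhas1 (Pearson r 0.96), Dclk1 (0.95) and Bmp1 (0.95). For Cldn7 they were Ripk4 (0.89), 1500009L16Rik (0.87) and Tesc (0.85), and for Cldn6 they were Prph (0.91), Slc34a3 (0.88) and Cplx1 (0.87). For Cldn4 they were Aggf1 (0.88), Cdca8 (0.87) and Wwc1 (0.87), for Cldn3 Abhd6 (0.87), Stac2 (0.84) and Hddc2 (0.82), and for Cdh3 Bbs7 (0.82), Hsd17b1 (0.79) and Rtn4r (0.78). The samples share sets and the contrast of somatic with pluripotent cells, so these values describe likeness over these samples only.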

How the data were processed

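The authors deposited linear probe intensities, a column for each sample, normalized in 5 sets, per the labels. Scanner software: not given in the sources used here, nor is the method of normalization. Each column appears to be a mean of 2 or 3 replicates, per the series' design text, so the spread between those replicates is not seen and n counts samples. Nothing says that samples of a group came from separate cultures in every case, so p-values measure the spread between these samples, and the number of arrays limits the precision. Of 26423 probes 21876 had 1 gene and 4547 none, and 21825 were matched by gene ID. Where a gene had more than 1 probe, that with values in the most samples stood for it, and ties went to the highest mean.

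Deposited intensities under 16 were set to 16, log2 was taken, and 1 limma model was fitted over all 30 samples with group and set as terms, for genes with at least 3 residual degrees of freedom and both groups in at least 2 sets (1 for SKM-FSK). A call needed a Benjamini-Hochberg adjusted p under 0.05 over all genes tested and at least a 2-fold difference. The fit was tested on simulated data. Numbers 1 and 2 in the titles of the OSKM iPSC and ESC samples coincide with sets 1 and 2, and the deviations of same-numbered samples correlated at 0.218 over 11406 genes.

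Named genes are all 10 members, the 3 largest called genes of each other junction or epithelial list, and the 3 genes most correlated with each member measured in all sets. The other repressor genes, Jup and the marker genes were named after their values were seen. The members and lists were chosen with earlier results of these data known. Alternatives covered the floor, normalization, probes, set term, variance prior, filter, samples and each sample left out, and the other probes of Cdh3, Cldn4 and Epcam were added after seeing the data. R 4.3.3, limma 3.58.1, data.table version 1.17.8, Python 3.11.15, pandas 2.3.3 and matplotlib 3.10.9 were used.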

Additional observations from a re-analysis of the deposited data

Results flagged for a closer look

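Set 5 differed in direction from other sets for Cldn3, Cldn6 and Cldn7, and these differences between sets were not tested. For Cldn3 the CiPSC control line less MEF3 was -1.20 on the log2 scale, whereas sets 1 and 3 gave 1.99 and 1.52, and set 2 gave 0.60 with pairs of samples on both sides of 0. ESC5 less MEF3 was -1.01 for Cldn3, against 1.46 to 2.36 in the sets where every pair ran the other way. For Cldn6 the CiPSC control line less MEF3 was -3.62, against 3.72 to 4.43 in sets 1 to 3. ESC5 less MEF3 was -3.45 for Cldn6, against 1.50 to 4.57 in sets 1 to 4. For Cldn7 the CiPSC control line and ESC5 were both under the floor of 16, which put each at -0.89 against MEF3 (29.8), while the other sets gave 2.60 to 3.82 for CiPSC and 2.02 to 4.24 for ESC. Among the differences of a somatic sample from the ESC of its set, that of MEF3 from ESC5 stood apart for Cldn6. MEF3 was 3.45 above ESC5, while the other 6 of the 7 somatic samples were between 1.50 and 4.57 below theirs (-1.50 and -4.57). Cldn6 was at 354 in MEF3, 32.5 in ESC5 and 28.8 in the CiPSC control line, so the difference does not single out MEF3. Such a gap arises by chance in about 1 in 20 groups of independent values. The values here are not independent, because MNF, MAF and ADSC were all set against the same ESC2. Other genes were searched for such gaps too, so a gap in some group can be expected by chance. The 1 in 20 is therefore not a test of Cldn6 in MEF3.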

How the results depend on the processing

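The calls of Epcam, Cdh11, Cldn7 and Dsp between CiPSC and somatic cells held in each of their 33, 32, 32 and 32 alternatives, at 3.49 to 4.67, -3.87 to -3.30, 2.14 to 3.13 and 2.02 to 2.84. Cdh1 lost its call there with no set term (3.15, adjusted p = 0.139 in limma). Of the 10 genes, between 6 and 8 were called with 1 sample left out. For ESC the count of 7 went to 3 with no set term and 4 in only the sets holding both groups, and was 5 to 8 with 1 sample left out. For OSKM iPSC it was 2 to 4, with 2 without MEF1, MNF, OSKM iPS1 or OSKM iPS2, and for SKM-FSK iPSC 3 to 6. CiPSC or OSKM iPSC against ESC stayed at 0 throughout. Over all genes, calls ran from 4120 to 6485 for CiPSC (4647 as reported), 3175 to 5961 for ESC (4887), 1183 to 3131 for OSKM iPSC (2548), 636 to 4133 for SKM-FSK iPSC (2540), 0 to 69 for CiPSC against ESC (5) and 0 to 7 for OSKM iPSC against ESC (2). Other cadherins called ran from 1 to 3 and catenins from 2 to 5. With the replicate numbers of OSKM iPSC and ESC as a replicate block, 0 of 8 genes were called and 0 of all genes. With day 12 as the reference in place of MEF3, 4 genes in place of 7 were past 2-fold at day 32, and Cdh3 (0.25), Cdh11 (-1.14) and Cldn6 (-1.13) reversed. The probe values under 16 in set 5 limit Cdh1 and Cldn7 there.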
